A study of Homo sapiens with 4 samples.

Results

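Peptide hormone genes of the islet, the gut and the calcitonin family were examined in QGP-1 cells, an established line from a human pancreatic neuroendocrine tumour. The 10 genes were INS, GCG, PPY, PYY, IAPP, GHRL, GAST, CALCA, CALCB and TAC1, and they were taken with every array probe that carried their symbol. For 9 of them 13 probes were found, among 25893 probes with a symbol for 19090 genes, while the expression of PPY, the gene of pancreatic polypeptide, was not analysed here. After growth in 10% fetal bovine serum in RPMI-1640, the cells spent 24 h at 0.1% serum, either with medium conditioned by pancreatic stellate cells (PSC medium, 2 arrays) or without it (mock, 2 arrays). Pancreatic stellate cells are the mesenchymal cells of the pancreas that lay down matrix. The labels do not describe the mock medium further. Only this cell line was measured. Nothing in the labels states that replicate arrays stem from separate cultures, so a p-value here reflects only array-to-array spread, possibly of technical origin.

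Peptide hormones are made as larger precursors, cut by prohormone convertases, trimmed and often amidated, and stored in dense-core granules until release. Insulin, glucagon and pancreatic polypeptide are products of separate islet cell types, and amylin, the product of IAPP, is released with insulin. Calcitonin gene-related peptides, calcitonin and amylin are related in sequence and signal through the calcitonin receptor or the calcitonin receptor-like receptor with accessory RAMP proteins. Neuroendocrine tumours of the pancreas can make hormones of the islet or hormones foreign to it, such as gastrin or calcitonin.

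The deposited values were linear intensities from 1-colour arrays of 28264 probes. Their array medians were 800 and 822 with PSC medium and 662 and 829 in mock cells, and 848 and 175 probes lay under 1 on the PSC medium arrays, against 0 and 30 on the mock arrays. Intensities were quantile normalized, given a floor of 1 and put on the log2 scale. Of 8 markers of neuroendocrine cells and of this line, 7 lay above the background limit defined in the next paragraph on every array. They included the somatostatin gene SST and the carcinoembryonic antigen gene CEACAM5, while SYP, the gene of the vesicle protein synaptophysin, did not reach it. Of 11 stellate cell and fibroblast markers, 6 acinar markers and 4 measured lymphoid and myeloid markers, 0 lay above the limit. The summed normalized intensity of the 11 stellate cell markers was 4906 and 5442 with PSC medium and 5063 and 4064 in mock cells. In limma 0 of the 11 passed.

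The table holds no detection call, so a background limit was set on each array from 495 probes of olfactory receptor, keratin-associated protein and taste receptor genes, families that pancreatic tumour cells are not known for. The limit was the 95th percentile of these probes. It corresponded to deposited intensities of 3991 and 4326 on the PSC medium arrays and 3240 and 3816 on the mock arrays. CALCA and CALCB were above the limit on all 4 arrays, with 3 of 3 probes. The other 7 measured genes, INS, GCG, PYY, IAPP, GHRL, GAST and TAC1, were under it on all 4 arrays with all 10 of their probes. The limit was 11.75 to 12.09 on the log2 scale, while the median level over all 19090 genes was 10.13. Most genes of the array thus had a mean level under it, so being under it is not particular to these hormone genes. A probe under the limit cannot be told from background here, which does not show that its transcript is absent.

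**Figure D1:**
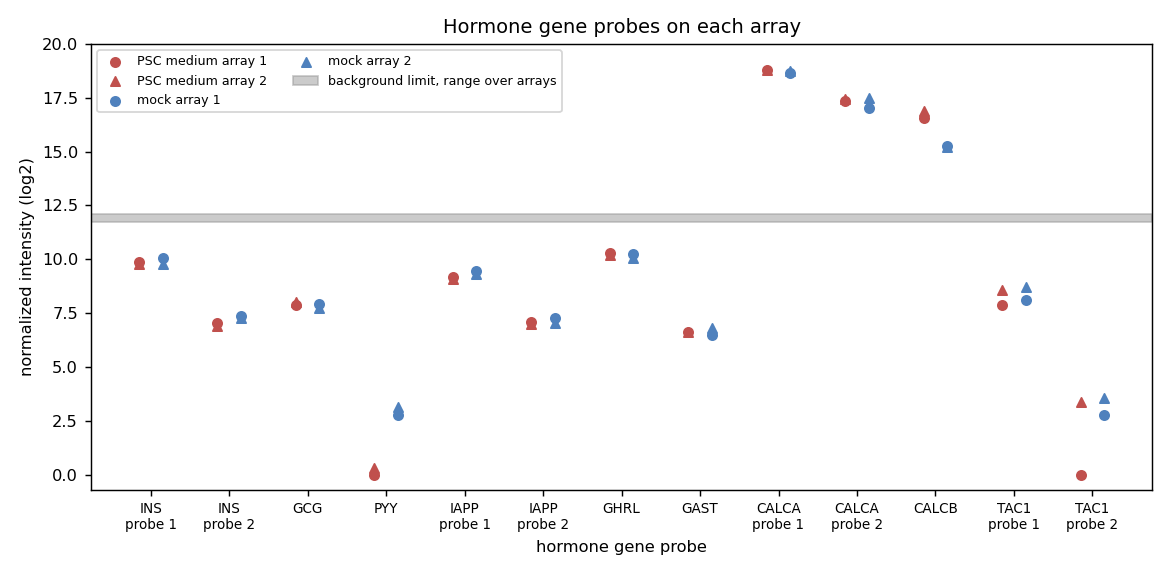
Normalized log2 intensity (y axis) of the 13 probes of 9 hormone genes (x axis) on PSC medium arrays (red) and mock arrays (blue), with circles for array 1 and triangles for array 2. The grey band is the background limit over the 4 arrays. The CALCA and CALCB probes lie above it and the 10 other probes below it, and the CALCB points of the PSC medium arrays stand above those of the mock arrays.

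Of the hormone genes above background, CALCB rose with PSC medium. It encodes beta calcitonin gene-related peptide, a vasodilating neuropeptide of sensory and enteric neurons. Its probe, PH_hs_0032424, had deposited intensities of 104857 and 122085 with PSC medium, against 33211 and 41761 in mock cells. The groups did not overlap, and the dimmer PSC medium array was brighter than either mock array by more than the mock arrays differed from each other.

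After normalization the CALCB level was 16.73 ± 0.20 with PSC medium and 15.24 ± 0.01 in mock cells on the log2 scale (SD, n = 2 each). CALCB rose 2.81-fold, a log2 fold change of 1.49 ± 0.17 (SE; 95% interval 1.07 to 1.91, limma adjusted p = 0.0245 over 19090 genes). Its rise ranked 151 among those genes. In bulk RNA, more cells with a transcript and more transcript per cell cannot be told apart. With every probe as a row of its own, the adjusted p was 0.0467 over 28264 probes in limma. The rise kept its direction in all 15 alternative settings tried, with log2 fold changes from 1.35 to 1.63, but passed the threshold of 0.05, or of 0.1 where that was the setting, in only 6 of them. Leaving out any 1 array ended the call: the adjusted p was 0.223 without PSC medium array 1, 0.337 without PSC medium array 2, 0.182 without mock array 1 and 0.162 without mock array 2 in limma. The adjusted p was also 0.0754 without normalization and 0.0613 with median centring. An exact permutation test of 2 arrays against 2 cannot give a two-sided p below 0.333.

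**Figure D2:**
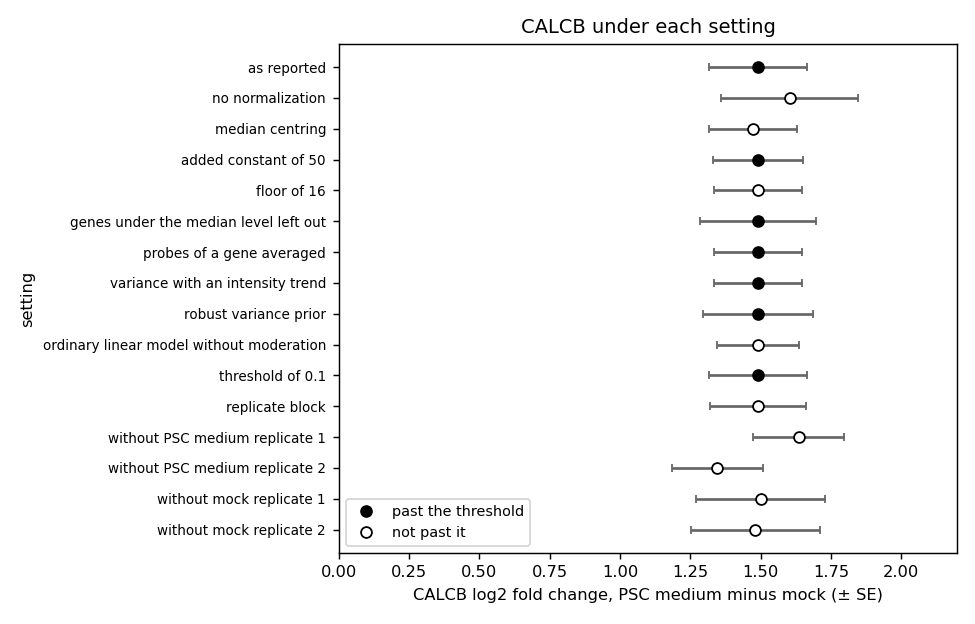
Log2 fold change of CALCB, PSC medium minus mock, with its standard error (x axis) under the reported setting and 15 alternatives (y axis). Filled points passed the adjusted threshold of their setting and open points did not. All estimates lie between 1.35 and 1.63, and the 4 settings that leave out an array, with 1 array in a group, are open.

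CALCA encodes calcitonin and alpha calcitonin gene-related peptide, which are made from alternatively spliced transcripts. Which of these transcripts each CALCA probe detects is not stated in the sources used. The first probe, PH_hs_0044625, had deposited intensities of 482947 and 452834 with PSC medium, against 370611 and 465601 in mock cells. The groups overlapped before normalization, with mock array 1 the lowest. This probe ranked 4 and 4 among all probes of the PSC medium arrays and 8 and 5 among those of the mock arrays. Quantile normalization gave the same value to equal ranks, so its level was 18.79 on both PSC medium arrays, against 18.69 ± 0.07 in mock cells (SD, n = 2).

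The log2 difference of the first CALCA probe was 0.10 ± 0.15 (SE; 95% interval -0.28 to 0.47, limma adjusted p = 0.753). The second probe, PH_hs_0002935, had deposited intensities of 180066 and 179309 with PSC medium, against 115229 and 197186 in mock cells. Its groups overlapped, since the mock arrays held both the lowest and the highest value. Its log2 difference was 0.15 ± 0.20 (95% interval -0.36 to 0.67, adjusted p = 0.703 in the limma fit of all probes). Both CALCA probes thus had intervals that include 0 and end at 0.67 or below.

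CALCB and CALCA are paralogs on chromosome 11, separated in the RefSeq annotation (GRCh38.p14) by the start of 1 gene, the pseudogene OR7E41P. Probe sequences were not used here, so signal shared between the 2 genes was not tested. The ratio of the CALCB probe to a CALCA probe on the same array does not depend on a scaling factor between arrays. With the first CALCA probe, the log2 ratio of deposited intensities was -2.20 and -1.89 with PSC medium, against -3.48 and -3.48 in mock cells. The mean log2 ratio was thus 1.43 higher with PSC medium (exact permutation p = 0.333, the smallest that 2 arrays against 2 allow). With the second CALCA probe the log2 ratio was -0.78 and -0.55 with PSC medium and -1.79 and -2.24 in mock cells, a difference of 1.35 (exact permutation p = 0.333). The ratio was higher on both PSC medium arrays than on either mock array with both probes.

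**Figure D3:**
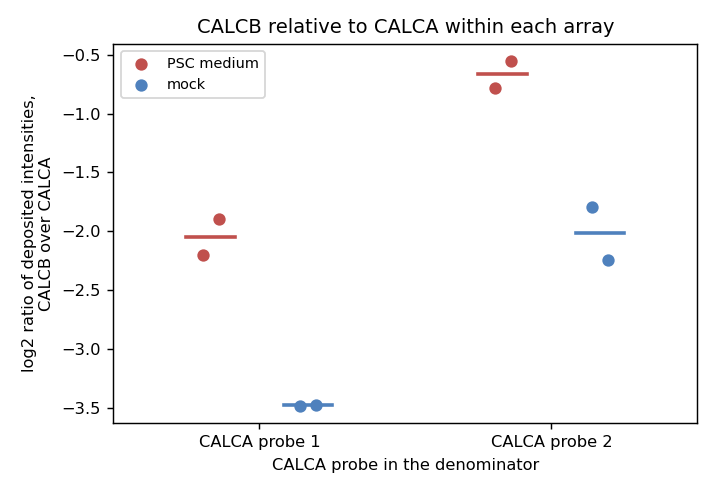
Log2 ratio of deposited intensities, CALCB over CALCA, within each array (y axis) for the 2 CALCA probes (x axis). Points are PSC medium arrays (red) and mock arrays (blue), and bars are group means. With the first CALCA probe the PSC medium arrays are at -2.20 and -1.89 and the mock arrays at -3.48 and -3.48.

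The promoter window of CALCA is shown because CALCA is the bright paralog beside CALCB. Windows of 250 bases before to 50 after the start were taken from RefSeq (GRCh38.p14), and 9 of the 10 genes, all but CALCB, had one or more, 12 windows in all. The cAMP response element TGACGTCA, its core TGACG, the ATF4 composite site TGATGCAA and the E-box CAGGTG were searched on both strands, and the core lies within the full element. The CALCA window, chr11:14972302-14972601 on the minus strand, reads as follows, with the match to the core in capitals, which starts at position -110 from the start.
CALCA: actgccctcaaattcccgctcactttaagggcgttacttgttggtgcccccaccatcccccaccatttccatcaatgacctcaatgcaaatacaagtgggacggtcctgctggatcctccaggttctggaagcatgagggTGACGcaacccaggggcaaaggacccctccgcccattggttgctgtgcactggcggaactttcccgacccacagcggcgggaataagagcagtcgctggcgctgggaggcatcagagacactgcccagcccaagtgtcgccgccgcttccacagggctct
The full element was in 0 of the 12 hormone gene windows and in 1.8% of 35116 windows of all genes. The core was in 4 of the 12, those of CALCA, INS, PYY and TAC1, and in 24.6% of all windows. The ATF4 site was in 0 of the 12 and in 0.9% of all windows, and the E-box in 2 of the 12, which are overlapping windows of PPY that share this 1 site, and in 20.6% of all windows. These matches describe letters only.

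INS encodes insulin, and neither of its probes exceeded the background limit. The first INS probe had deposited intensities of 983 and 911 with PSC medium, against 896 and 932 in mock cells. The groups overlapped, and all 4 values fell within the upper part of the range of the tissue-restricted probes, from percentile 75.4 to percentile 79.6. The difference of log2 signal was -0.07 ± 0.17 (SE; 95% interval -0.50 to 0.36, limma adjusted p = 0.85). The second INS probe had 115 and 132 with PSC medium, against 150 and 160 in mock cells, with a difference of -0.35 (95% interval -0.75 to 0.05, adjusted p = 0.279 in the limma fit of all probes). The INS locus also gives rise to the read-through transcript INS-IGF2 (named after its values were seen), whose own probe had deposited intensities of -12 and 9 with PSC medium and 27 and 26 in mock cells, all at the bottom of the scale.

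IAPP, the gene of amylin, showed deposited intensities of 580 and 579 on its first probe with PSC medium, against 607 and 681 in mock cells. Both PSC medium values were below both mock values, but the difference of log2 signal did not pass (-0.28 ± 0.16 SE, 95% interval -0.67 to 0.10, limma adjusted p = 0.349). The second IAPP probe had 121 and 142 with PSC medium, against 145 and 139 in mock cells, and these groups overlapped.

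GCG, which encodes the precursor of glucagon and the glucagon-like peptides, had deposited intensities of 226 and 284 with PSC medium, against 216 and 224 in mock cells. After normalization the groups overlapped, at 7.94 ± 0.09 and 7.83 ± 0.11 on the log2 scale (PSC medium and mock, SD, n = 2 each), and the limma adjusted p was 0.742. The GCG signals lay between percentiles 46.5 and 50.1 of the tissue-restricted probes.

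PYY encodes peptide YY, a satiety hormone of enteroendocrine L cells and of some islet cells. Its deposited intensities were -23 and 0 with PSC medium, against 21 and 16 in mock cells, so all 4 were at the bottom of the scale. At most 1.62% of the tissue-restricted probes were dimmer on any array. After normalization its intensities were 0 and 1.25 with PSC medium, against 6.75 and 8.75 in mock cells, and 1 of these 4 values was under the floor. PYY passed the threshold as lower (limma adjusted p = 0.0114), and no fold is given since both groups were at background. The log2 difference of -2.78 is between intensities near 0. It was -0.18 (limma adjusted p = 0.519) with 50 added to every intensity and 0 with a floor of 16. Without normalization it was -4.20 (limma adjusted p = 0.00222).

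GHRL encodes ghrelin, a hormone of the stomach and of islet epsilon cells that is acylated before it binds its receptor. Its deposited intensities were 1313 and 1202 with PSC medium, against 1020 and 1130 in mock cells. The groups were apart in deposited intensity but overlapped after normalization, and the difference of log2 signal was 0.11 ± 0.16 (SE; 95% interval -0.29 to 0.52, limma adjusted p = 0.736). The signals lay between percentiles 79.0 and 82.8 of the tissue-restricted probes. With the median of all probes as a laxer limit, GHRL and the first INS probe counted as above background on all 4 arrays, and no other hormone probe was added to CALCA and CALCB.

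GAST encodes gastrin, the acid-stimulating hormone of antral G cells. Its deposited intensities were 82 and 107 with PSC medium, against 90 and 121 in mock cells, and the groups overlapped. The difference of log2 signal was -0.05 ± 0.18 (SE; 95% interval -0.48 to 0.39, limma adjusted p = 0.909).

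TAC1 encodes the precursor of the tachykinins substance P and neurokinin A. Its first probe had deposited intensities of 229 and 407 with PSC medium, against 246 and 442 in mock cells. The groups overlapped, and the spread between arrays of a group exceeded the difference between groups. The difference of log2 signal was -0.20 ± 0.30 (SE; 95% interval -0.94 to 0.54, limma adjusted p = 0.742). The second TAC1 probe had -22 and 9 with PSC medium, against 21 and 18 in mock cells, at the bottom of the scale.

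Of the 9 measured hormone genes, 1 was called higher (CALCB), 1 lower (PYY, at background) and 7 were not called. Among all 19090 genes limma called 1.17% higher and 0.974% lower, 2.14% in all. Over the 28264 probes fitted singly it called 0.386% higher and 0.248% lower, 0.633% in all, and 1 hormone probe each way. After normalization the groups were apart for 4 of the 9 genes, CALCA and CALCB higher and PYY and IAPP lower. The CALCA groups overlapped before normalization. Among all genes 53.5% had groups apart, 24.5% higher and 29% lower. The median log2 difference was -0.05 over the 9 genes and -0.01 over all genes.

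**Figure D4:**
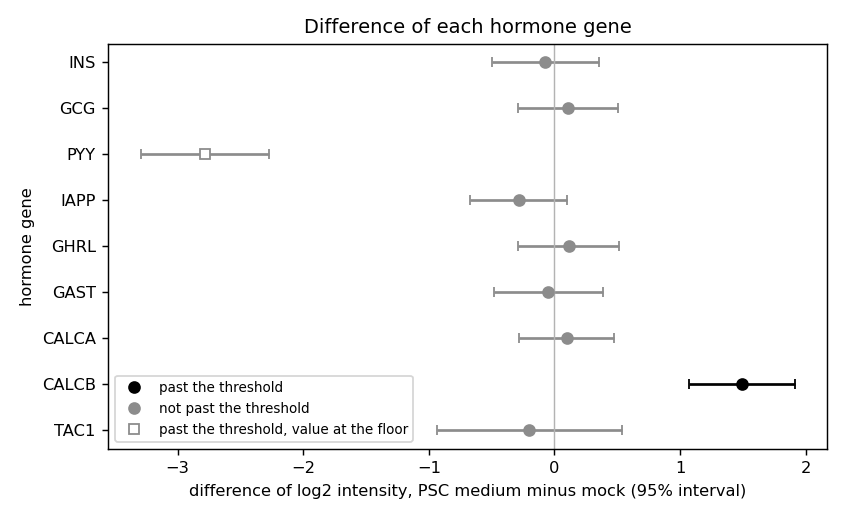
Difference of log2 intensity, PSC medium minus mock, with its 95% interval (x axis) for the 9 measured hormone genes (y axis), each by its brighter probe. CALCB lies at 1.49 with an interval from 1.07 to 1.91. The open square, PYY, passed the threshold with a value at the floor, and the 7 grey points have intervals that include 0.

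Genes involved in making and breaking down these peptides gave 0 calls in limma among 12 measured genes of 14 listed. The other 2, the prohormone convertase genes PCSK1 and PCSK2, were not analysed here. At an unadjusted limma p under 0.05 there were 1 higher and 2 lower, against 9.84% higher and 12.7% lower of all genes. The median log2 fold change of the 12 measured genes was 0.10, and 6 of the 12 lay above the background limit on every array. PCSK1N, which encodes the convertase inhibitor proSAAS, had log2 levels of 11.65 and 11.55 with PSC medium, against 12.30 and 12.12 in mock cells (-0.61 ± 0.16 SE, limma adjusted p = 0.104). It was above the background limit on both mock arrays but on neither PSC medium array, so the difference is partly of a signal at background. CPD, a carboxypeptidase gene, had a log2 fold change of -0.61 ± 0.22 (limma adjusted p = 0.186). MBOAT4, the gene of the enzyme that acylates ghrelin, named after its values were seen, did not pass (limma adjusted p = 0.688). Its level was under the limit on all arrays.

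Of 18 receptor genes for these hormones, 1 rose and 1 fell in limma and 16 did not pass, with a median log2 fold change of -0.04. The shares called among all genes were 1.17% higher and 0.974% lower. INSR, the insulin receptor gene, had log2 levels of 12.07 and 11.67 with PSC medium, against 13.33 and 13.29 in mock cells, a log2 fold change of -1.44 ± 0.19 (limma adjusted p = 0.0328). It was above the background limit on both mock arrays but on only 1 of the PSC medium arrays, the other having a value under its limit, so the difference is partly of a signal at background. NPY2R, whose product is the receptor for a shortened form of peptide YY, passed as higher with a log2 level of 10.99 ± 0.02 with PSC medium and 9.74 ± 0.06 in mock cells (SD, n = 2 each; limma adjusted p = 0.0283), all under the limit. CALCR, the calcitonin receptor gene, and RAMP1, whose product completes the receptor for calcitonin gene-related peptides, did not pass (limma adjusted p = 0.118 and 0.167). The 18 genes included 0 above the background limit on all 4 arrays.

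Among 48 measured precursor genes of other peptide hormones and neuropeptides, 3 rose, 3 fell and 42 did not pass in limma, with a median log2 fold change of -0.05. Over all genes limma called 1.17% higher and 0.974% lower. GAL, the gene of the neuropeptide galanin, was above the limit on all 4 arrays and had log2 levels of 13.70 and 13.88 with PSC medium, against 12.42 and 12.65 in mock cells (1.26 ± 0.17 SE, limma adjusted p = 0.0349). VGF, a precursor of secreted neuropeptides, was above the limit with PSC medium but not in mock cells and was at least 2.22-fold higher (limma adjusted p = 0.0122). INHBA, the gene of the activin A subunit, was likewise at least 1.76-fold higher (limma adjusted p = 0.00946). GRP, which encodes gastrin-releasing peptide, was above the limit in mock cells but not with PSC medium, with log2 levels of 11.65 and 11.43 against 12.85 and 12.80, so it was at least 1.77-fold lower with PSC medium (limma adjusted p = 0.0299). In these bounds the signal of the group under the limit was set to the limit. The adjusted p-values beside the bounds are those of the fitted differences in limma, which use the signals under the limit. The bounds themselves were not tested. NMU, the neuromedin U gene, and APELA, which encodes an apelin receptor ligand, passed as lower but lay under the limit on all arrays (limma adjusted p = 0.0347 and 0.0225). TAC4, a tachykinin gene related to TAC1, and PNOC, the prepronociceptin gene, did not pass (limma adjusted p = 0.0756 and 0.0912). Both lay under the limit on all arrays.

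**Figure D5:**
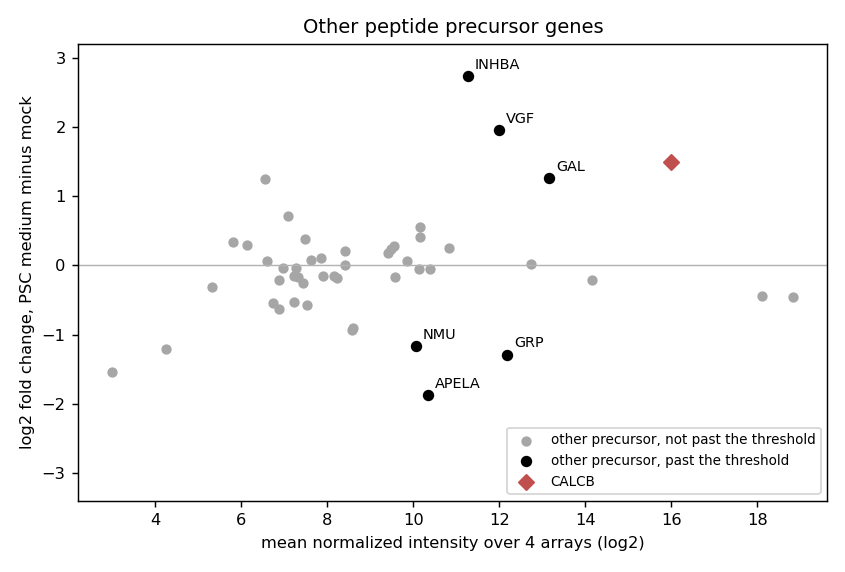
Log2 fold change, PSC medium minus mock (y axis), against the mean normalized log2 intensity over 4 arrays (x axis) for 48 precursor genes of other peptide hormones and neuropeptides, with CALCB as a red diamond. Black points passed the threshold: INHBA, VGF and GAL lie above 0 and APELA, GRP and NMU below it.

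Of 18 measured transcription factor genes known to act on islet hormone genes, 1 rose, 1 fell and 16 did not pass in limma, with a median log2 fold change of 0.01. Across all genes 1.17% were called higher and 0.974% lower. CREM, which encodes cAMP-responsive activators and repressors, was above the background limit on all 4 arrays and had log2 levels of 15.10 and 14.98 with PSC medium, against 13.98 and 13.82 in mock cells (1.14 ± 0.16 SE, limma adjusted p = 0.0383). NKX2-2, a homeobox factor gene required for islet beta cells, passed as lower (limma adjusted p = 0.0158) with log2 levels of 8.06 and 7.80 with PSC medium, against 9.74 and 10.07 in mock cells, all under the limit. MAFA, which encodes an activator of the insulin gene, and PAX4 did not pass (limma adjusted p = 0.0787 and 0.081), and both lay under the limit on all arrays. Of the 18 factor genes, 3 were above the limit on all 4 arrays.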

How the data were processed

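Per the labels' protocols, RNA from NucleoSpin columns was amplified (MessageAmp II, amino allyl) and coupled to Cy5. The deposited values are linear probe intensities, and values below 0 show that the authors had subtracted a background. Scanner, software, scaling and genome build are not given in the sources used here. Since log2 array medians spanned 0.325, more than the 0.2 allowed, quantile normalization was applied to the intensities, then a floor of 1 and log2. A gene was represented by its brightest probe, and 4 of the 9 hormone genes had more than 1 probe. All 25893 named probes kept their symbol after matching to RefSeq by Entrez ID. The test was limma's (version 3.58.1, R 4.3.3): lmFit with eBayes, two-sided, Benjamini-Hochberg adjusted over 19090 genes, threshold 0.05, with 2 residual and 3.97 prior degrees of freedom. The number of arrays limits the precision. All members were named, and of each list every called gene and at most 2 others, the smallest p first, with MBOAT4 named beside them for its role after its values were seen. The members and lists were chosen with earlier results of these data known. The limma step was also run on simulated data with normal noise. That simulation held neither normalization nor a floor, so it does not bear on values at the floor, and its outcome is not given here. No array was a copy of another: 105 probes held identical values in the PSC medium pair and 121 in the mock pair. Alternatives covered normalization, floor, filter, probe choice, variance model, threshold, the replicate block, each array left out and the background limit. Figures were drawn with matplotlib 3.10.9.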

Additional observations from a re-analysis of the deposited data

How the results depend on the processing

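The number of all genes called, 409 in the reported setting, was 113 without normalization, 91 with median centring, 1737 with 50 added, 50 with a floor of 16, 1798 when only genes at or over the median level were kept, 93 with averaged probes, 1291 with an intensity trend, 2240 with a robust prior, 3 without moderation, 1546 at a threshold of 0.1, 84 with the replicate block and 0 to 36 when 1 array was left out. Higher calls made up 223 of 409 as reported, 35 of 113 without normalization and 29 of 91 with median centring, whose median log2 fold change over all genes was -0.10. Hormone genes called, 2 as reported, were 1 (PYY) without normalization, with median centring and with the replicate block. They were 1 (CALCB) with 50 added, with dimmer genes dropped and with an intensity trend. They were 0 with a floor of 16, where CALCB had an adjusted p of 0.055 in limma, 0 without moderation and 0 to 0 when 1 array was left out. Hormone probes called, 2 as reported, were 1 without normalization, 1 with median centring, 0 with the replicate block and 0 to 0 when 1 array was left out. Replicate numbers were not taken to pair the arrays, since the labels give no shared batch and the differences between replicates 1 and 2 correlated at only 0.07 over genes between the groups. With the replicate block the CALCB log2 fold change of 1.49 had an adjusted p of 0.0541 in limma.

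Of uncalled genes, INS changed sign without normalization (0.050) and without mock array 1 (0.066, lowest -0.21 with 1 array left out). GAST did so without mock array 2 (-0.21 to 0.11 with 1 array left out), and TAC1 without PSC medium array 1 and without mock array 2 (-0.53 to 0.13 with 1 array left out). CALCA, GCG, GHRL and IAPP kept their direction in every alternative that could be fitted. PYY passed in 6 of 14 alternatives. When only genes at or over the median level were kept, CALCA, CALCB and GHRL were the hormone genes that remained. Hormone probes above background numbered 3 at the 90th and 99th percentiles, on deposited intensities and with olfactory receptor probes alone, and 5 with the median of all probes as the limit. The causes of these changes were not tested. With 7 of 9 genes under a limit that most genes did not reach, the arrays limit what can be seen of the differences of these 7.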
